A study of Homo sapiens with 6 samples.

Results

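Most of 9 well-known targets of the hypoxia factor HIF1 did not pass the test after magnetic fluid hyperthermia (MFH) in HeyA8 cells. HeyA8 is an established human ovarian cancer line. Of all tested probes only 12.3% passed, so this count is no result about the set. PFKFB4, an enzyme that makes and removes an activator of glycolysis, rose, a call that 5 of 15 alternative analyses lost. NDRG1, a stress-responsive gene linked to growth control and metastasis, fell. The set was 9 genes of 20046 named on the array, each read by 1 probe (of 47231) and chosen by probe identifier: VEGFA, ADM, SLC2A3, HK2, PFKFB4, CA9, BNIP3, DDIT4 and NDRG1. The platform annotation gave the same gene name for 8 of them and did not list ILMN_1725139, the probe taken for CA9.

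Total RNA of 3 samples of MFH-treated parental HeyA8 cells and of 3 samples of untreated parental HeyA8 cells was labelled with biotin and hybridised to Illumina bead arrays, 1 array per sample. In MFH, magnetic particles are warmed by an alternating magnetic field. The particles, field, temperature, duration and harvest time are not given in the sources used here, and no arm with particles alone or field alone was analysed here. Nothing in the labels tells whether replicates were grown separately, so the error behind each p-value may be only technical.

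HIF1 is a pair of proteins, HIF1A and ARNT. With oxygen present, EGLN enzymes mark HIF1A and VHL directs its destruction, so that HIF1A is governed mostly at the protein level. When HIF1A escapes, the pair binds short elements near its targets and raises genes for glucose uptake, glycolysis, blood vessel growth, acid export and the removal of mitochondria. Several of these targets also answer other stress factors, such as ATF4, AP-1 and p53.

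Promoter sequence from RefSeq (GRCh38.p14) was at hand for 6 of the 9 genes. It is shown for PFKFB4, which rose, and for the classic hypoxia genes CA9 and BNIP3. BNIP3 did not pass the test, and the probe taken for CA9 was above background on only 1 array. Each line holds the 250 bases before the annotated start, 5′ to 3′ on the gene's strand, and the capitals mark the cores of the hypoxia response element, ACGTG and GCGTG, on either strand (CACGT and CACGC on the other).
PFKFB4 (chr3:48556804-48557053, minus strand): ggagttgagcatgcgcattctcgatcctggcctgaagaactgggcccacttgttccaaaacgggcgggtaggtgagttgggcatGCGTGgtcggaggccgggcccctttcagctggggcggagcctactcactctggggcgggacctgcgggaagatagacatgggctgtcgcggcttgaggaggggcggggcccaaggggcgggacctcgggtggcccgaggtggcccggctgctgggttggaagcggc
CA9 (chr9:35673678-35673927, plus strand): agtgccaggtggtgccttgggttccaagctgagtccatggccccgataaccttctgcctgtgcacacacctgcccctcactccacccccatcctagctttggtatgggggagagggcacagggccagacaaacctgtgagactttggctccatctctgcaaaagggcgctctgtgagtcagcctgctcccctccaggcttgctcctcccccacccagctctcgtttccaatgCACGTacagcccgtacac
BNIP3 (chr10:131981924-131982173, minus strand): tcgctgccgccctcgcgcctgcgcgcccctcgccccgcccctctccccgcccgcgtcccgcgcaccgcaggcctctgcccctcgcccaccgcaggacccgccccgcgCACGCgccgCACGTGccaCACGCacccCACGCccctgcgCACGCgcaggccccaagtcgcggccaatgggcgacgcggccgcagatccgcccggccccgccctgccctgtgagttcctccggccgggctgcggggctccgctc
PFKFB4 carried 1 core, GCGTG, ending 162 bases before the start. CA9 carried 1 core, ACGTG on the other strand, ending 14 bases before it. BNIP3 carried 4 matches to GCGTG and 2 to ACGTG, and the ACGTG matches were 1 palindrome read on both strands. All 6 genes held at least 1 core, as did 43.2% of the 35116 promoters of this length. None of the 6 held the heat shock element (GAA, TTC and GAA in a row, 2 bases apart, either strand), present in 0.441% of promoters, or TGATGNAAN, a core of the amino acid response element, present in 3.13%. The motifs describe these windows only. The annotated PFKFB4 gene extends farther upstream than this start.

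The median raw intensity lay between 102.0 and 126.5 on MFH arrays and between 102.6 and 113.7 on untreated arrays. Background, taken as the most common intensity on each array, ranged from 94.4 to 116.1. The median thus lay close to background and says little about signal, which differed more between arrays. Background-subtracted ADM intensity, for example, was 2914, 1984 and 2217 on MFH arrays and 2228, 1489 and 2192 on untreated arrays. Most lineage markers gave signal: 8 of 10 epithelial and ovarian cancer markers and 6 of 6 mesenchymal markers exceeded background on all 6 arrays. The epithelial cadherin CDH1 exceeded it on none, and the ovarian cancer marker MUC16 on 0 of 3 MFH arrays and 1 of 3 untreated arrays. The summed background-subtracted intensity of the epithelial list was 4301 to 5872 on MFH arrays and 5131 to 6463 on untreated arrays, and that of the mesenchymal list 20110 to 25630 and 17730 to 22520. Of other cell types, the leukocyte markers PTPRC and CD3E were above background on 0 arrays, CD68 was above it on all 6 and CD14 on 3 MFH arrays and 1 untreated array. The endothelial marker CDH5 was above it on all 6 and VWF on 0. The sum was 1533 to 2441 on MFH arrays and 1390 to 1838 on untreated arrays for the leukocyte list, and 101.5 to 275.9 and 111.6 to 178.3 for the endothelial list. In limma 0 of 3 tested leukocyte and 0 of 3 tested endothelial markers passed (1, CD14, and 0 at an unadjusted p under 0.05). Of 8 tested epithelial and ovarian cancer markers 0 were higher and 2, KRT8 and PAX8, lower with MFH (25%, against 6.58% of all tested probes). The median log2 change of that list was 0.036. Of 6 mesenchymal markers 2, COL1A1 and ACTA2, were higher and 0 lower (33.3%, against 5.70%), with a median of 0.10. In each list other markers changed in the opposite direction without passing. The part of all these markers in the values below was not tested. Bulk arrays cannot tell fewer responding cells from less RNA per cell. The heat shock list gave a check of the labels: 9 of 12 genes were higher with MFH (75%, against 5.70% of all tested probes). HSPA6 rose by 5.81 ± 0.15, DNAJB1 by 3.14 ± 0.11 and HSPA1A by 1.58 ± 0.11 on the log2 scale (SE, limma adjusted p up to 6.89e-07 among these). CRYAB was higher too, but exceeded background on only 1 of 3 untreated arrays, and its change ranged from 3.87 to 5.37 over 15 alternatives.

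Levels below are normalised log2 intensities, each comparing a probe with itself across arrays, and a change is MFH minus untreated. All 9 probes were bright enough to be tested in limma. Of the 9, 1 was higher and 1 lower at an adjusted p of 0.05, where 12.3% of all 23615 tested probes passed, 5.70% higher and 6.58% lower. The median change of the 9 was -0.052, beside -0.0087 over all tested probes, and the median size was 0.17, beside 0.13. The first of these is the value of the CA9 probe, which was above background on only 1 array; over the other 8 probes the median was -0.073. In 4 of the 9 the groups did not overlap, which was so for 28.7% of tested probes. Counts this close to the background are no result about the set.

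**Figure D1:**
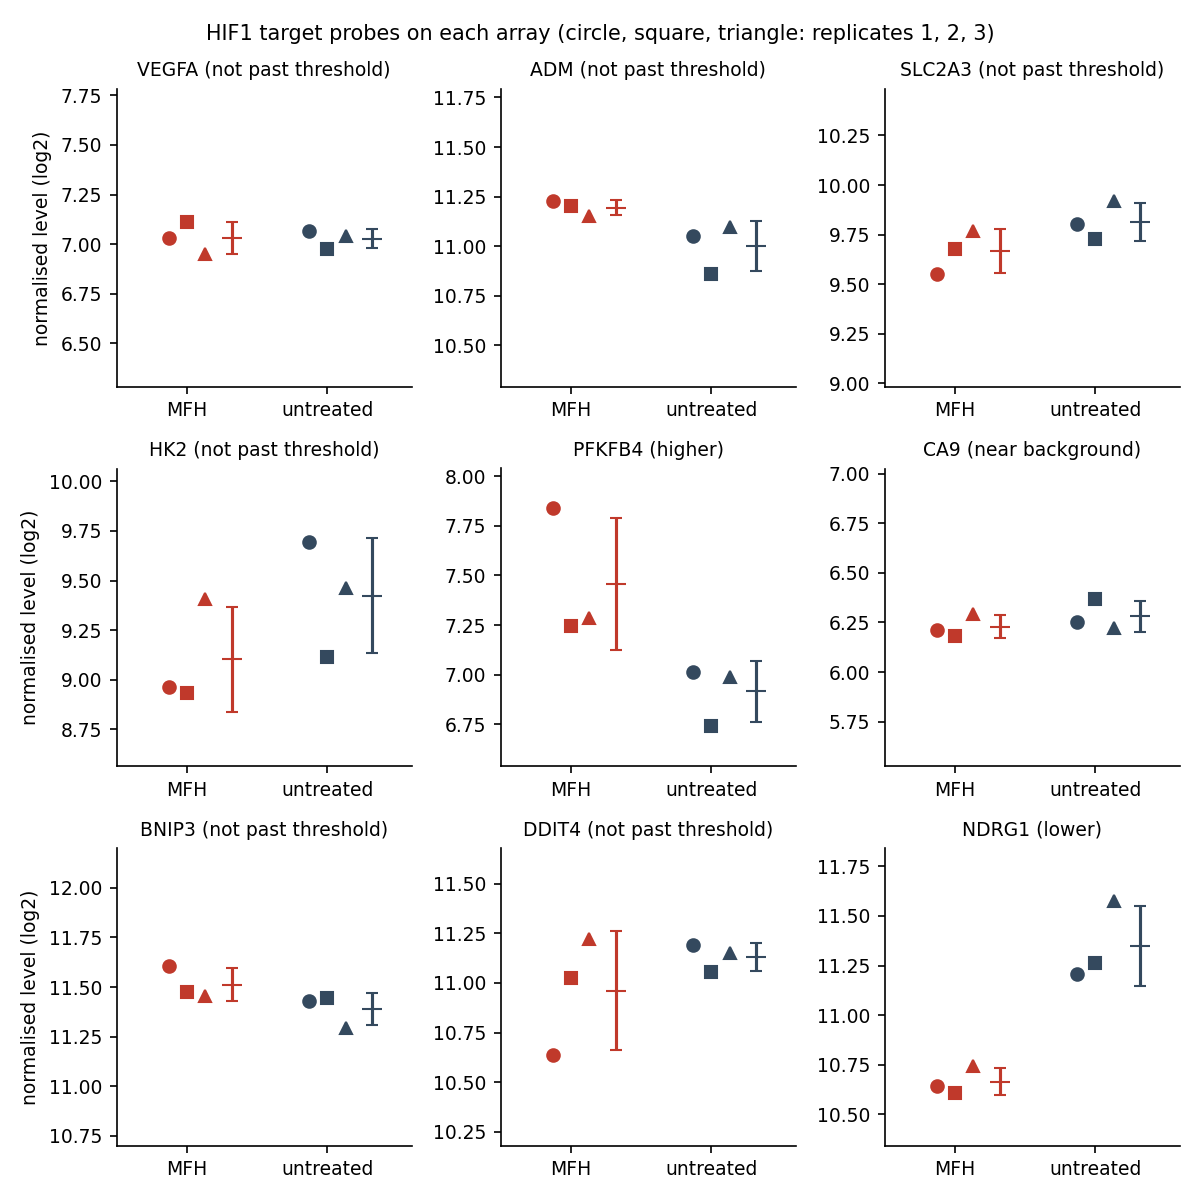
Normalised log2 level of each of the 9 probes (vertical axis, every panel spanning the same log2 range) on 3 MFH arrays (red, left) and 3 untreated arrays (dark, right); bars are mean ± SD. Groups separate most clearly for NDRG1, with MFH arrays between 10.61 and 10.74 and untreated arrays between 11.21 and 11.58, and MFH replicate 1 stands above the other MFH arrays for PFKFB4 and below them for DDIT4.

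Of the secreted ligands, VEGFA, which drives blood vessel growth, did not pass the test. Its probe ILMN_2375879 read 7.03, 7.11 and 6.95 in MFH replicates 1 to 3, against 7.07, 6.98 and 7.04 in untreated replicates 1 to 3. The arrays of both groups were interleaved. The change was 0.0041 ± 0.098 (SE), with a 95% interval of 0.867-fold to 1.16-fold and a limma adjusted p of 0.99. The probe was dim: after subtraction of background its intensity averaged 65.3 with MFH and 61.4 without, so remaining background and the offset of 50 draw its fold change towards 1. A further VEGFA probe, ILMN_1803882, changed by 0.080 ± 0.13 (SE, limma adjusted p = 0.78), and ILMN_1693060 was above background on 0 arrays.

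ADM encodes adrenomedullin, a peptide that widens vessels. Its probe ILMN_1708934 read 11.23, 11.20 and 11.15 with MFH, against 11.05, 10.86 and 11.10 in untreated cells. Every MFH array exceeded every untreated array, but the closest pair differed little. The change of 0.19 ± 0.10 (SE) did not pass the test (limma adjusted p = 0.279, 95% interval 0.981-fold to 1.33-fold).

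Glucose enters through carriers such as SLC2A3 (GLUT3). Its probe ILMN_1775708 read 9.55, 9.68 and 9.77 with MFH, against 9.80, 9.73 and 9.92 in untreated cells. The groups overlapped in a single position, with MFH replicate 3 above untreated replicate 2. The change was -0.15 ± 0.10 (SE, limma adjusted p = 0.433, 95% interval 0.772-fold to 1.05-fold). SLC2A14, a near-identical gene, had a probe that changed by 0.20 ± 0.17 (SE, limma adjusted p = 0.523). Whether either probe also binds the other's RNA was not tested.

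HK2, hexokinase 2, traps glucose in the cell by phosphorylating it. Its probe ILMN_1723486 read 8.97, 8.93 and 9.41 with MFH, against 9.70, 9.12 and 9.46 in untreated cells. Arrays within each group differed about as much as the groups did. The change was -0.32 ± 0.15 (SE, limma adjusted p = 0.215, 95% interval 0.638-fold to 1.00-fold). The gene's other probe, ILMN_2156172, gave -0.017 ± 0.18 (SE, limma adjusted p = 0.974), so the lower mean of ILMN_1723486 was not seen there. The change of ILMN_1723486 was -0.18 without untreated replicate 1 (adjusted p = 0.568) and -0.48 without untreated replicate 2 (0.0674).

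PFKFB4 makes and removes fructose 2,6-bisphosphate, the activator of phosphofructokinase. It was the one probe of the set that rose. ILMN_1653292 had raw intensities of 316.2, 164.6 and 203.5 with MFH, against 172.4, 125.9 and 165.0 in untreated cells. Normalised, it read 7.84, 7.24 and 7.29 with MFH and 7.02, 6.74 and 6.99 in untreated cells. All MFH arrays stood above all untreated arrays, and MFH replicate 1 stood well above the other MFH arrays. PFKFB4 rose by 0.54 ± 0.15 (SE), 1.46-fold (limma adjusted p = 0.0252, 95% interval 1.17-fold to 1.81-fold), a size exceeded by 5.25% of tested probes. Background-subtracted intensities averaged 119.9 with MFH and 53.2 in untreated cells, a ratio of 2.25 between groups before normalization. MFH replicate 1 weighed most in this ratio. Its value was 200.1, against 70.2 and 89.5 in MFH replicates 2 and 3 and 67.8, 30.5 and 61.2 in untreated replicates 1 to 3. The direction held in all 15 alternatives but the call did not. Without MFH replicate 1 the change was 0.34 (limma adjusted p = 0.0923), without untreated replicate 2 it was 0.46 (adjusted p = 0.101) and without untreated replicate 3 it was 0.57 (adjusted p = 0.0533). It was also lost with median scaling (adjusted p = 0.164) and with a normexp offset of 16 (adjusted p = 0.0542).

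CA9, carbonic anhydrase 9, sits at the cell surface and helps to export acid. It is among the most hypoxia-dependent genes known. ILMN_1725139 had raw intensities of 123.4, 98.6 and 125.2 with MFH, against 113.2, 107.3 and 110.3 in untreated cells. It was above background on 0 of 3 MFH arrays and on 1 of 3 untreated arrays, where it only reached the limit, so no fold is given (limma adjusted p = 0.818). At this signal its RNA could not be told from background on 5 of 6 arrays, which does not show that it was absent.

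**Figure D2:**
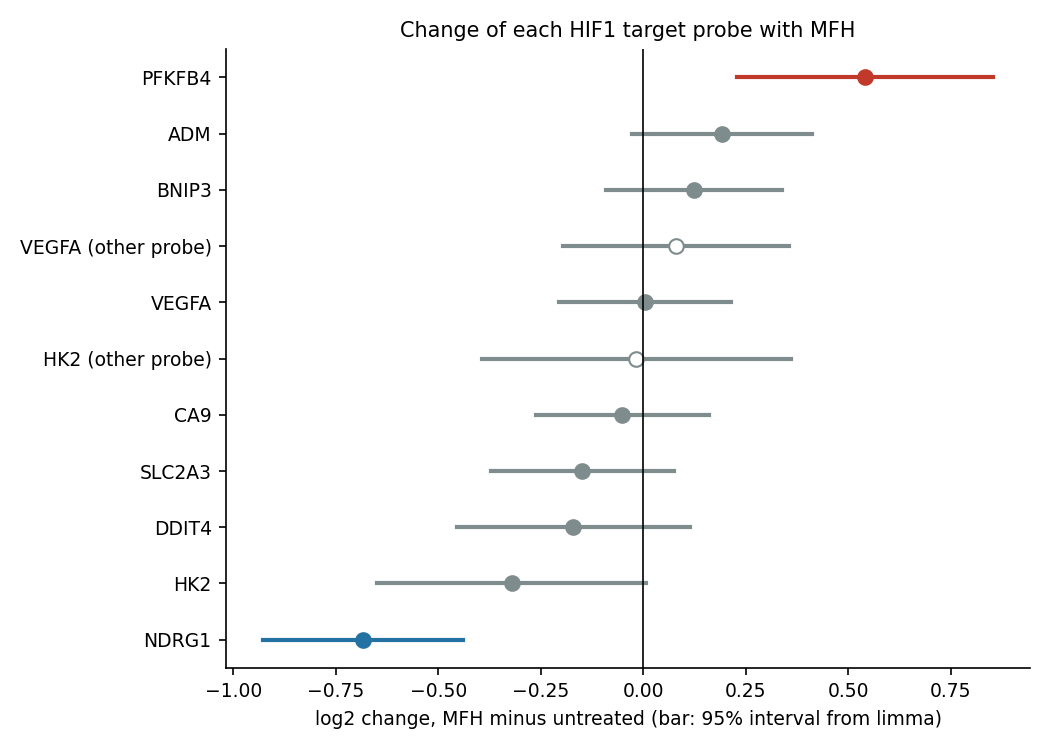
Change of each probe on the log2 scale (horizontal axis, MFH minus untreated; points with 95% limma intervals), for the 9 probes (filled) and the 2 tested further probes of VEGFA and HK2 (open). The interval lies wholly above 0 for PFKFB4 and wholly below 0 for NDRG1, and includes 0 for the others.

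BNIP3, a mitochondrial outer membrane protein that marks mitochondria for removal, read 11.61, 11.48 and 11.45 with MFH at ILMN_1724658, against 11.43, 11.44 and 11.29 in untreated cells. The groups did not overlap, though MFH replicate 3 and untreated replicate 2 were nearly equal. The change was 0.12 ± 0.10 (SE, limma adjusted p = 0.516, 95% interval 0.938-fold to 1.26-fold). BNIP3L, its close relative, changed by 0.10 ± 0.10 (SE, limma adjusted p = 0.616).

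DDIT4 (REDD1) restrains the growth kinase mTORC1 under stress. ILMN_1661599 read 10.64, 11.02 and 11.22 with MFH, against 11.19, 11.05 and 11.15 in untreated cells. MFH replicate 1 lay well below and MFH replicate 2 just below the tight untreated group, and MFH replicate 3 lay above it. The SD was 0.30 with MFH and 0.069 in untreated cells (n = 3 each). The change was -0.17 ± 0.13 (SE, limma adjusted p = 0.493), and it was -0.0091 without MFH replicate 1 (adjusted p = 0.976).

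NDRG1 had the largest change of the 9. ILMN_1809931 had raw intensities of 2046, 1379 and 1752 with MFH, against 2599, 2078 and 3141 in untreated cells. Normalised, it read 10.64, 10.61 and 10.74 with MFH and 11.21, 11.26 and 11.58 in untreated cells. The MFH arrays were close together and all lay below the untreated arrays. NDRG1 fell by 0.68 ± 0.11 (SE) on the log2 scale, to 0.623 of its untreated level (limma adjusted p = 0.00117, 95% interval 0.526-fold to 0.738-fold), a size exceeded by 2.84% of tested probes. The fall passed the test in 15 of 15 alternatives, at adjusted p-values up to 0.0376. Its relative NDRG3 changed by 0.21 ± 0.099 (SE, limma adjusted p = 0.214).

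The wider pathway was read from lists of further genes. Of 33 other HIF1 targets listed, 30 were tested: 4 were higher, 2 lower and 24 did not pass, with a median change of -0.0055. The share higher was 13.3% and the share lower 6.67%, against 5.70% and 6.58% of all tested probes. STC2, a secreted glycoprotein of calcium and phosphate balance, rose by 0.96 ± 0.13 (SE, limma adjusted p = 0.000247). PPP1R3C, which targets a phosphatase to glycogen, rose by 0.75 ± 0.17 (SE, limma adjusted p = 0.00812). Its probe was dim, above background on 2 of 3 untreated arrays, and the change was 0.51 without MFH replicate 1 (adjusted p = 0.0245). P4HA2 and P4HA1, prolyl hydroxylases that mature collagen, rose by 0.70 ± 0.11 and 0.67 ± 0.10 (SE, limma adjusted p = 0.000612 and 0.00066), each by its brightest probe, while 1 other tested probe of each did not pass. PLOD2, a collagen lysyl hydroxylase, was mixed in another way, since its brightest probe missed the threshold (0.26 ± 0.096, limma adjusted p = 0.102) and its 2 other probes were higher. HILPDA, a lipid droplet protein, fell by 0.51 ± 0.12 (SE, limma adjusted p = 0.0101), and AK4, a mitochondrial adenylate kinase, fell by 0.40 ± 0.12 (adjusted p = 0.0401), lower at 2 of 4 tested probes. Median scaling ended the calls of PPP1R3C and HILPDA (adjusted p = 0.0597 and 0.0933), as leaving out MFH replicate 2 did for HILPDA (0.0551), and AK4 lost its call in 7 of 15 alternatives.

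Of 18 tested enzymes and transporters of glycolysis, 0 were higher in limma (2 at an unadjusted p under 0.05), 2 lower and 16 did not pass. The share lower was 11.1%, against 6.58% of all tested probes, and the share called in either direction was near the 12.3% of all tested probes. The list had a median change of -0.064 and a range from -0.42 to 0.32. SLC2A1 (GLUT1), the common glucose carrier, fell by 0.42 ± 0.11 (SE, limma adjusted p = 0.0239). HK1, the constitutive hexokinase, fell by 0.32 ± 0.10 (adjusted p = 0.0479) at 1 of its 2 tested probes. PGK1, phosphoglycerate kinase, had a change of 0.31 ± 0.096 that just missed the threshold (limma adjusted p = 0.0504), and LDHA, lactate dehydrogenase A, one of 0.031 ± 0.11 (adjusted p = 0.913). SLC2A1 lost its call in 6 of 15 alternatives and HK1 in 11. Over both lists 4 of 48 tested genes were higher and 4 lower (8.33% each, against 5.70% and 6.58% of all tested probes). The count higher was 4 to 5 with arrays left out. The count lower was 1 without MFH replicate 1, 0 without MFH replicate 2 and 6 without MFH replicate 3. It was 1 without untreated replicate 1, 3 without untreated replicate 2 and 1 without untreated replicate 3.

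**Figure D3:**
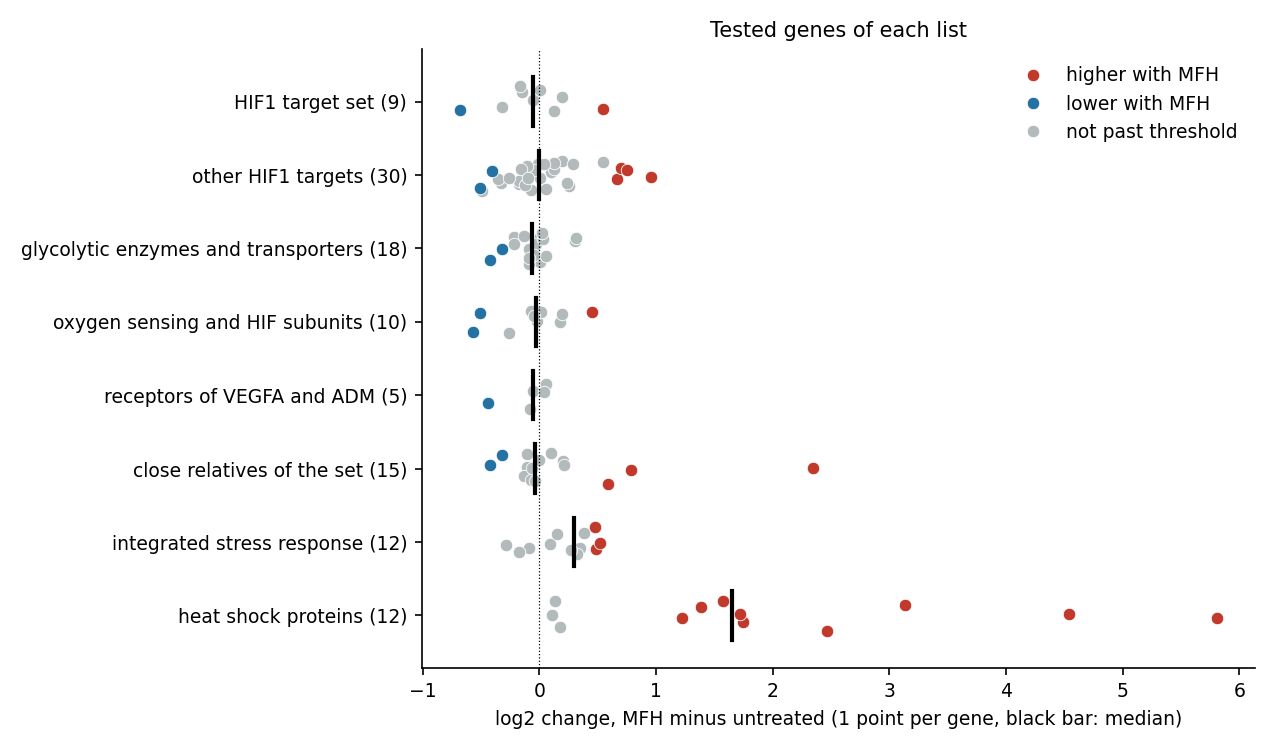
Change of each tested gene (horizontal axis, log2, MFH minus untreated) by gene list, with the number of tested genes in brackets; red is higher, blue lower, grey not past the threshold, and black bars are medians. The HIF1 lists and glycolysis centre near 0 (medians -0.052, which is the value of the dim CA9 probe, -0.0055 and -0.064), while the heat shock list has a median of 1.65.

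Of the oxygen-sensing genes and HIF subunits, 10 of 13 were tested, of which 1 was higher and 2 lower. The shares were 10% and 20%, against 5.70% and 6.58% of all tested probes. HIF1A RNA did not pass the test, at 10.26, 10.26 and 10.34 with MFH against 10.32, 10.37 and 10.37 in untreated cells (change -0.069 ± 0.095, limma adjusted p = 0.737). VHL fell by 0.57 ± 0.10 (SE, limma adjusted p = 0.002), with 2 of its 3 probes lower, and EGLN2, the prolyl hydroxylase PHD1, fell by 0.51 ± 0.10 (adjusted p = 0.00398) at both probes. Both calls were lost with median scaling (adjusted p = 0.0627 for VHL and 0.0931 for EGLN2). CITED2, which competes with HIF1A for its coactivators EP300 and CREBBP, rose by 0.45 ± 0.12 (limma adjusted p = 0.0256). That call was lost without any 1 of untreated replicates 1, 2 and 3 (adjusted p = 0.0727, 0.0782 and 0.0534) and without MFH replicate 1 or 3 (0.103 and 0.0679), and with median scaling (0.239) or a normexp offset of 16 (0.0763). EGLN1, the main HIF hydroxylase, changed by 0.20 ± 0.11 (limma adjusted p = 0.296). EGLN3, itself a HIF target, was above background on 0 arrays, and ARNT on 0 of 3 MFH arrays and 1 of 3 untreated arrays. Protein levels and HIF activity were not measured.

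Among relatives and receptors of the ligands, PGF rose most. PGF, placental growth factor, which shares the receptor FLT1 with VEGFA, read 9.33, 9.18 and 9.25 with MFH against 6.99, 6.75 and 6.98 in untreated cells. The groups lay far apart. PGF rose by 2.34 ± 0.10 (SE), or 5.08-fold (limma adjusted p = 3.38e-09), and by 1.98 to 2.75 over 15 alternatives. Background-subtracted intensities averaged 558.7 with MFH and 52.3 in untreated cells, a ratio of 10.7, so the offset and remaining background draw this fold towards 1. VEGFC, the lymphatic vessel growth factor, rose by 0.59 ± 0.12 (limma adjusted p = 0.00419). NRP1, a co-receptor of VEGFA, fell by 0.44 ± 0.098 (limma adjusted p = 0.00776) at 1 of 2 probes, a call lost with median scaling (adjusted p = 0.123). Of 5 tested receptor genes that was the 1 call by a gene's brightest probe, and 0 were higher in limma, also at an unadjusted p under 0.05. The share lower was 20%, against 6.58% of all tested probes. NRP2, a relative of NRP1, was lower at 1 of 4 tested probes but not at its brightest (-0.051 ± 0.14, limma adjusted p = 0.883). The receptor FLT1 was above background on 0 arrays, as was CALCRL, the receptor of adrenomedullin. The difference between the changes of VEGFA and PGF was not tested as such.

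**Figure D4:**
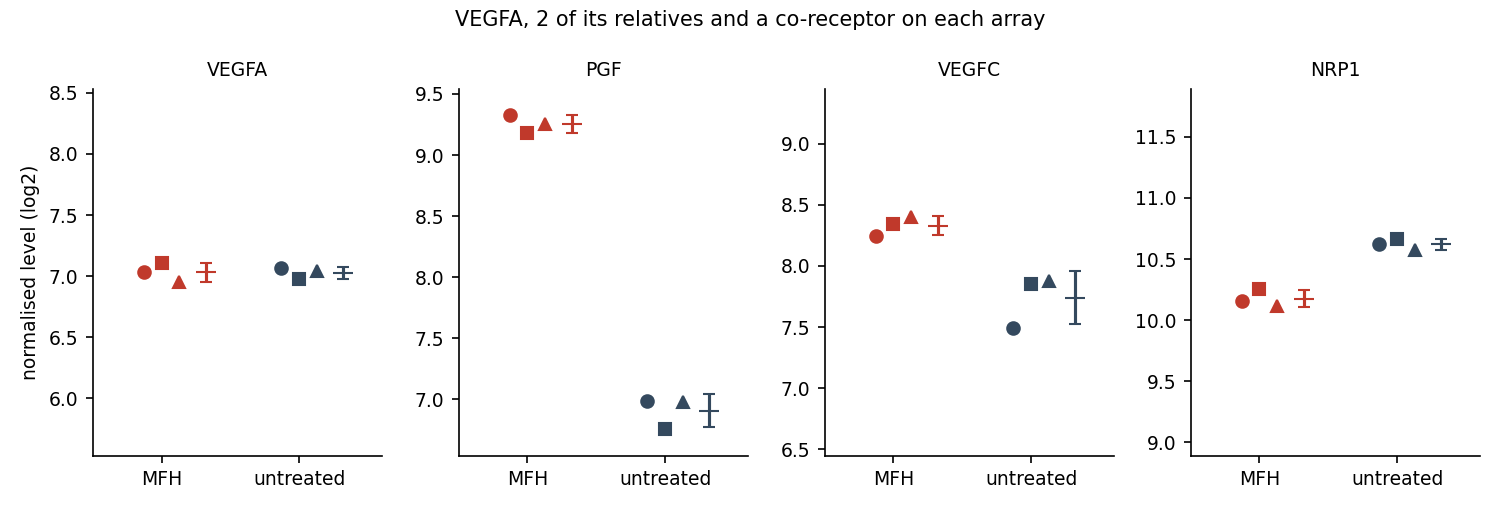
Normalised log2 level (vertical axis, every panel spanning the same log2 range) of VEGFA, PGF, VEGFC and NRP1 on 3 MFH arrays (red, left) and 3 untreated arrays (dark, right), with mean ± SD. VEGFA overlaps between groups, PGF lies near 9.25 with MFH and between 6.75 and 6.99 without, VEGFC is higher and NRP1 lower with MFH.

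Of the close relatives of the 9 genes, 15 were tested, 3 higher and 2 lower (20% and 13.3%, against 5.70% and 6.58% of all tested probes). Besides PGF and VEGFC the third rise was CA2, a cytosolic carbonic anhydrase, by 0.78 ± 0.098 (SE, limma adjusted p = 0.000113) at both its probes. The falls were SLC2A1 and HK1. PFKFB3, the relative of PFKFB4 best known in tumour glycolysis, changed by -0.13 ± 0.097 (limma adjusted p = 0.472), and PFKFB1 was above background on 0 arrays.

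VEGFA, DDIT4 and other HIF1 targets can also answer the integrated stress response, led by ATF4. In that list 3 of 12 genes were higher and 0 lower in limma (6 and 1 at an unadjusted p under 0.05), with a median change of 0.30. The shares were 25% higher and 0% lower, against 5.70% and 6.58% of all tested probes. SESN2, CHAC1 and PPP1R15A rose by 0.52 ± 0.12, 0.49 ± 0.11 and 0.48 ± 0.099 (limma adjusted p = 0.0104, 0.00872 and 0.00523). CHAC1 and PPP1R15A lost their calls with median scaling (adjusted p = 0.0581 and 0.0635) and SESN2 without untreated replicate 3 (0.0577). DDIT3, encoding CHOP, changed by 0.38 ± 0.15 (limma adjusted p = 0.118) and ATF3 by 0.33 ± 0.20 (adjusted p = 0.368). Without MFH replicate 1, DDIT3 rose by 0.52 and passed (limma adjusted p = 0.0387), while ATF3 changed by 0.014 (adjusted p = 0.969). The part of this response in the values of the 9 probes was not tested.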

How the data were processed

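The authors deposited linear bead intensities per probe, exported with BeadStudio per the submitters' processing notes (version not given in the sources used here). The table is not normalized, and its lowest values show that no background was subtracted. A second deposited table holds log2 values. Its columns have the same quartiles and track log2 of the raw intensities array by array (r at least 0.9995), so it appears quantile normalized without background subtraction; no source used here says how it was made, and it served as an alternative.

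From the intensities, background was corrected by normexp (saddle-point, offset 50), values were put on the log2 scale and arrays were quantile normalized in limma 3.58.1 (R 4.3.3). Probes whose mean exceeded the median of all probes (6.22, log2) were tested, 23615 in all, with lmFit, eBayes and Benjamini-Hochberg adjustment at 0.05, group being the only term. Offset and remaining background draw changes of dim probes towards 1. A probe counted as above background when it exceeded the array's mode by 2 SD of the values below the mode. Of 47231 probes, 30113 had 1 gene symbol in the platform annotation, 8 had several and 17110 had none; symbols were updated through RefSeq gene identifiers. The brightest probe stood for a gene of a list. Text names all 9 probes, the other probes of these genes, the 3 largest rises and falls past the threshold in each list, and some fixed genes. Further genes (PLOD2, PGK1, LDHA, BNIP3L, NDRG3, SLC2A14, PFKFB1, PFKFB3, FLT1, CALCRL, NRP2, CDH1, MUC16, PTPRC, CD3E, CD68, CD14, CDH5, VWF, KRT8, PAX8, COL1A1, ACTA2) were named after their values were seen. Members and lists were chosen with earlier results of these data known. The number of arrays limits the precision. The code was also run on simulated intensities with the same noise setting for every probe, and no result here rests on that run.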

Additional observations from a re-analysis of the deposited data

How the results depend on the processing

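Each of the 9 changes was recomputed in 15 alternatives: no background correction, offset 16, cyclic loess, median scaling, no filter, trend and robust eBayes, array weights, a replicate block, the deposited log2 table, and each array left out. Of the 9, 8 kept their direction throughout. VEGFA did not: its change ranged from -0.036 to 0.044 when arrays were left out, at -0.022 without untreated replicate 2 and -0.036 without MFH replicate 2. ARNT also turned, to 0.0097 with array weights, and ranged from -0.099 to 0.052 with arrays left out, being positive without untreated replicate 2 or MFH replicate 3 (0.011). The count of the 9 called higher was 0 with offset 16 and with median scaling, and 0 to 1 with arrays left out. The count called lower was 1 in each alternative. Pathway genes called higher, 4 of 48, numbered 3 to 6 over the alternatives. Pathway genes called lower, 4 of 48, numbered 1 with offset 16, 2 with cyclic loess, 0 with median scaling, 2 with the mean over the probes of a gene, and 0 to 6 with arrays left out. The cause was not tested. Over all probes median scaling gave 1030 calls in place of 2902. With a replicate block the counts of the 9 stayed at 1 higher and 1 lower, and HK1 lost its call (adjusted p = 0.0715). Arrays that share a number had deviations correlated at 0.0039, 0.060 and -0.036, so the numbers were not taken as pairs. Of 9 heat shock genes called, 9 passed in all alternatives, and of 18 genes called in the other lists 6 did: STC2, P4HA1, P4HA2, PGF, VEGFC and CA2. Dim probes, such as those of CA9, VEGFA and PFKFB4, limit what changes can be seen.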
